A study of Mus musculus with 6 samples.

Results

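The comparison set alveolar type 2 (AT2) cells against Club cells of the mouse lung, 2 sorted samples of each, across 17721 of the 22239 genes in the deposited table. A gene was included when it had a value of at least 10 in at least 2 of the series' 6 samples. The 4 samples came from mice aged 8 weeks and were sorted by flow cytometry on reporters of endogenous genes after cells with CD31 or CD45, which mark endothelial and blood cells, had been depleted. AT2 samples carried SPC-YFP, a reporter of the surfactant protein C gene Sftpc, and Club samples carried CCSP-mCherry, a reporter of the Club cell secretory protein gene Scgb1a1; the series also holds 2 samples of cells with both reporters (BASC), which entered the model only as a further group. Strain, sex and treatment are not given in the labels. Nor is it stated whether the 2 replicates of a population are different animals; p-values therefore describe the spread between these samples only, which may be technical. Because RNA was measured in bulk, fewer cells of a type and less RNA per cell cannot be told apart.

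AT2 cells line the alveoli, make and recycle surfactant, and can renew the alveolar surface. Club cells are the non-ciliated secretory cells of the bronchioles, release secretoglobins and other airway proteins, metabolise inhaled chemicals and can give rise to ciliated and goblet cells. Both are secretory epithelia that arise from the same endoderm, and transcription factors, receptors, transporters and secreted proteins are the parts of a cell's gene set through which it reads its surroundings and acts on them.

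Values are normalised read counts, treated here as scaled by 1 factor per sample, since the method is not stated. The intervals at which low whole numbers are missing gave estimated depths, over the genes listed, of 18203252 and 13173583 reads in the AT2 samples and of 15437848 and 12723154 in the Club samples. A count of 0 allows up to 3 reads, and this floor corresponded to 2.29 to 3.21 normalised counts across the 4 libraries. Where both libraries of a population were listed at 0, the fold is given as at least the ratio to this floor, taken as the mean over the population's libraries, and floors cover counting error only. Genes are not independent replicates, and across them Pearson's r of log2 values was 0.872 between the AT2 samples, 0.925 between the Club samples and 0.703 to 0.715 between the populations. The sort genes followed the labels. Sftpc (ENSMUSG00000022097, GRCm38 chromosome 14, 70520941 to 70524081) had 301267 and 373742 normalised counts in AT2 samples but 240 and 224 in the Club samples, and Scgb1a1 had 751642 and 760675 in the Club samples but 413 and 302 in AT2; the sort selected for both. All 20 AT2 markers were higher in AT2 and 19 of 20 Club markers were higher in Club cells, with summed leukocyte markers of 10329 and 17423 in AT2 samples against 164 and 224. Of 4 leukocyte markers tested 1 was called, the lysozyme gene Lyz1, which made up most of the AT2 sum (10035 and 16981), and S100a9 was at 0 in all 4 samples. Of 5 endothelial markers tested, Esam was higher in AT2 (1087 and 964 against 2 and 3) and Vwf in Club cells (63 and 32 against 0 and 0), and Pecam1 had 27 and 7 in AT2 against 3 and 6. Markers of other airway cells were not all absent from the Club samples: the 15 ciliated markers summed to 12036 and 11840 normalised counts in Club cells against 2638 and 2890 in AT2, with 14 of 15 called, and the 10 goblet markers to 16002 and 20830 against 1013 and 791, with 7 of 9 tested called. Of 15 alveolar type 1 markers, 6 were higher in AT2 and 3 in Club cells, with sums of 28822 and 32486 in AT2 samples against 12793 and 14658. The mesenchymal markers summed to 292 and 15 in AT2 samples against 1493 and 1650 in Club samples. Of 5 tested, Fn1 (1431 and 1508 in Club samples against 49 and 2) was the single call. The calls of Fn1 and Vwf were lost without either Club replicate, and that of Vwf also without either AT2 replicate.

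Across all genes, 1492 (8.42%) were higher in AT2 and 1720 (9.71%) were higher in Club cells, together 18.1% of those tested, by a limma model on log2(normalised count + 1) with Benjamini-Hochberg adjustment over all genes and a threshold of 0.05. A difference of at least 4-fold was reached by 712 of the genes higher in AT2 and by 1177 of those higher in Club cells, together 10.7% of genes tested. The samples of the populations did not overlap for 58.0% of genes. The 4 classes of protein-coding genes, assigned by symbol, stood at different distances from this background. Among 768 transcription factor genes 18.5% were called, which is near the background but below the 21.3% of protein-coding genes. The class includes 330 ZFP zinc finger genes with 4.55% called, so the share was higher among its other members. Calls were made for 38.3% of 381 receptor genes, 29.1% of 523 transporter and channel genes and 43.1% of 457 secreted protein genes, but for 10.2% of 1836 long non-coding RNA genes and 2.38% of 504 small non-coding RNA genes. The median absolute log2 fold change was 0.76 over all genes, 0.60 for transcription factors, 1.61 for receptors, 1.08 for transporters and channels and 2.18 for secreted proteins. For genes whose samples did not overlap between the populations, leaving out 1 library cannot change the sign of the fold change. With 1 library left out, the number of genes called fell to 1981 and 1863 without AT2 replicates 1 and 2, and to 1178 and 1181 without Club replicates 1 and 2; the genes still called numbered 1799, 1712, 1160 and 1169, and none of the 3212 fitted fold changes changed sign.

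**Figure D1:**
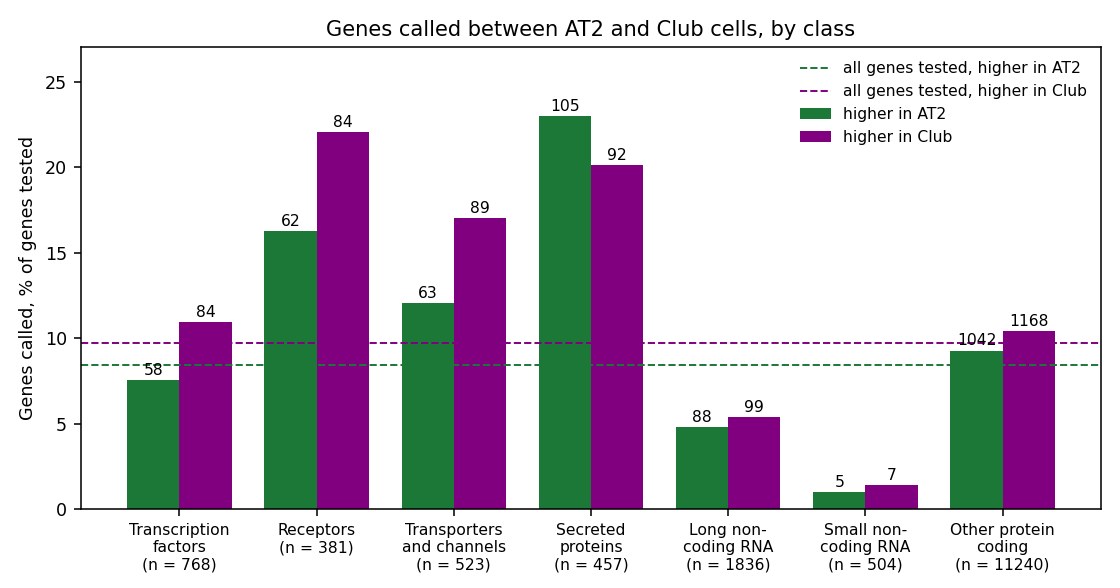
Share of tested genes called in each direction (y axis, percent) for 7 classes of genes, with the number called above each bar; dashed lines give the shares over all genes tested. Bars of receptors, transporters and secreted proteins stand above the lines, those of transcription factors near them and those of non-coding RNA below them.

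The classes also took different shares of the RNA. Transporter and channel genes held 4.29% and 4.34% of all normalised counts in the AT2 samples and 2.81% and 2.85% in the Club samples, and receptor genes held 2.32% and 2.36% against 1.94% and 1.98%. Secreted protein genes held 10.5% and 11.1% in the AT2 samples, with 11.1% and 10.3% in the Club samples, so that the populations overlapped. The 8 surfactant protein and secretoglobin genes made up 5.42% and 5.99% of the total in AT2 samples, against 7.35% and 7.11% in Club samples, and Scgb1a1 alone made up 5.90% and 5.76% in Club cells. The other secreted protein genes held 5.06% and 5.10% in AT2 against 3.71% and 3.22% in Club cells. With every gene of a class counted, the AT2 samples thus had larger shares for transporters, receptors and the rest of the secreted proteins. No test was made on shares of 2 samples each. Single genes weighed on these shares. Of 13900003 and 14090464 normalised counts in the AT2 samples, the transporter gene Slc34a2 alone had 187818 and 199846. The lysozyme gene Lyz2 had 178232 and 179734, and the receptor gene Lrp2 32098 and 29295. In the Club samples they had 1823 and 2250, 2179 and 990, and 65 and 256. Shares without these genes were not computed, so the larger AT2 shares cannot be read as a difference across each class.

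The sequences just before the start of 4 called genes are shown first, as examples from each population among the genes with an entry in the promoter table used; they were chosen after their values were seen. Slc34a2, the sodium-phosphate cotransporter of AT2 cells, and Lamp3, a lamellar body membrane protein, were higher in AT2. Cyp2f2, the cytochrome P450 that activates naphthalene, and Scgb3a1, a secretoglobin, were higher in Club cells. Each sequence is the 250 bases upstream of the RefSeq start (GRCm38.p6), 5′ to 3′ on the gene's strand, with capitals for any match to 6 short motifs searched on both strands. The windows are Slc34a2 on the plus strand at chr5:53049103-53049352, Lamp3 on the minus strand at chr16:19706366-19706615, Cyp2f2 on the plus strand at chr7:27119705-27119954 and Scgb3a1 on the plus strand at chr11:49663345-49663594.
Slc34a2: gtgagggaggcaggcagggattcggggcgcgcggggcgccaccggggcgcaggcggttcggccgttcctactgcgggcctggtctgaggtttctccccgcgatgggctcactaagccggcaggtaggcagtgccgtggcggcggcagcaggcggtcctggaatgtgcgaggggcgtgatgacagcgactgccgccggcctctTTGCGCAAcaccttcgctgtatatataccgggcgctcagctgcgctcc
Lamp3: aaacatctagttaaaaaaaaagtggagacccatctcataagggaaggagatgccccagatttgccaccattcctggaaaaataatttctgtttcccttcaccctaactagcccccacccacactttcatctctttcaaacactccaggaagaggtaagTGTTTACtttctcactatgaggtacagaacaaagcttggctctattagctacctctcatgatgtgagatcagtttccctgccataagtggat
Cyp2f2: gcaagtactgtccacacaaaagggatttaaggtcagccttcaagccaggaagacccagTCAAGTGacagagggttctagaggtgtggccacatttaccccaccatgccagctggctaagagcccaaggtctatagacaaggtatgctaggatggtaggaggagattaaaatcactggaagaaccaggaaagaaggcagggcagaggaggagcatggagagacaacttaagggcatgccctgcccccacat
Scgb3a1: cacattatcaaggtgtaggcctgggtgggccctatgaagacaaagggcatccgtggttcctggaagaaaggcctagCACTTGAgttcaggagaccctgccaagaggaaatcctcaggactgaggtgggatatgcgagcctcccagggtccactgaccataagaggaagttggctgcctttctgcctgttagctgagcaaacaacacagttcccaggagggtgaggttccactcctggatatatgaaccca

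Capitals in Slc34a2 mark TTGCGCA, a core of C/EBP sites, which starts 48 bases before the start and is matched on both strands with an overlap. In Lamp3 they mark TGTTTAC, a forkhead core, 92 bases before the start. In Cyp2f2 and Scgb3a1 they mark CACTTGA, a core of NKX2 sites, on the reverse strand from 192 and on the given strand from 174 bases before the start. Over the 300-base windows of the RefSeq table, from 250 bases before to 50 after a start, 11143 of 17713 distinct tested genes had an entry, including 454 of 710 genes at least 4-fold higher in AT2 and 777 of 1177 at least 4-fold higher in Club cells. TTGCGCA was in 3.42% of all windows, 2.64% of AT2 windows and 1.80% of Club windows, and CACTTGA in 2.09%, 2.86% and 3.99%. TGTTTAC was in 2.58% of all windows, 3.74% of AT2 and 4.12% of Club windows, and the SOX core AACAATG in 1.90%, 2.42% and 3.22%. The grainyhead core AACCGGT was in 1.50%, 1.32% and 1.67%, and the ETS core GGAAGTG in 14.0%, 8.15% and 8.62%. Mean GC content was 60.5% in all windows, 59.9% in AT2 and 57.6% in Club windows. A match is a description of these letters and not a bound site.

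Of the 768 transcription factor genes, 58 were higher in AT2 and 84 in Club cells. The factors with the largest differences that were higher in AT2 were Sp5, Zfp462, Arnt2, Etv5, Zfp385b and Prdm1, and the most abundant included Irx1 and Zfp219. Etv5, an ETS factor that acts downstream of FGF signalling and maintains AT2 identity, had 9905 and 10024 normalised counts in AT2 cells, with 55 and 83 in Club cells. It was 144-fold higher in AT2 (fitted log2 fold change 7.18 ± 0.21, limma adjusted p = 3.8e-06). Errors after ± are SEs of the limma fit. Their spread was estimated from all 6 samples, BASC included, and drawn toward that of genes of similar level. Sp5, a zinc finger factor known as a target of WNT signalling, had 257 and 263 in AT2 and was listed at 0 in both Club samples, at least 93.1-fold higher (adjusted p = 0.00096). Prdm1, a transcriptional repressor, had 318 and 248 against 2 and 19. The 2 populations were separated at each of these genes, although some of the lower Club values lay within a few reads of 0. The call of Arnt2 was lost without either Club replicate (highest adjusted p 0.096), that of Zfp219 without Club replicate 1 (0.070), those of Zfp385b, Zfp462 and Prdm1 without either AT2 replicate (0.089, 0.091 and 0.083 at most) and that of Prdm1 also without Club replicate 1 (0.051). Zfp462 was lost as well without BASC replicate 1 (0.050).

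On the Club side the rule named Sox2, Zfp750, Otx1, Trp73 and Mycl among others for the size of the difference, and Tef, Ahr and Six4 among the most abundant. Sox2, the SOX factor that marks the conducting airway from development on, had 1161 and 1132 in Club cells and was listed at 0 in both AT2 samples, at least 417-fold lower there (adjusted p = 2.9e-05). Mycl, a MYC family member, had 1125 and 1500 in Club cells and 4 and 7 in AT2 (log2 fold change -7.68 ± 0.50, adjusted p = 8.3e-05). Ahr, the ligand-activated receptor for dioxins that induces xenobiotic enzymes, had 1912 and 1657 in Club cells and 321 and 280 in AT2 (-2.57 ± 0.18, adjusted p = 0.00011). Six4, a homeodomain gene, had 1556 and 1340 in Club cells and 1 and 24 in AT2. Its call did not hold without Club replicate 1 or 2 (highest adjusted p 0.14), nor did that of Tef (0.076 at most). Trp73, a p53 family member that multiciliated cells use, had 192 and 227 against 0 and 0. Foxj1, the ciliogenesis factor, which was chosen after its values were seen, had 795 and 825 against 96 and 40. The call of Foxj1 was lost without either Club replicate (highest adjusted p 0.086). The sum of the 15 ciliated markers, of which Foxj1 is 1, was also higher in Club cells, and its part in their difference was not tested.

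Families of factors were split between the populations. The members named in this paragraph were chosen after their values were seen. All 4 Iroquois homeodomain genes in the class that were called were higher in AT2: Irx1 had 9253 and 11394 against 792 and 699 (log2 fold change 3.78 ± 0.14, adjusted p = 8.6e-06), Irx2 had 4233 and 3839 against 1303 and 1282, Irx3 had 2796 and 2890 against 911 and 1000, and Irx5 had 1600 and 2114 against 767 and 631. Irx3 and Irx5 lie 555.6 kb apart on chromosome 8, and Irx1 and Irx2 lie 665.1 kb apart on chromosome 13. Of 10 SOX genes tested, 5 were higher in Club cells and 2 in AT2, together 70.0% against 18.1% of all genes. Beside Sox2, Sox9 had 111 and 143 in Club cells against 0 and 1, Sox21 had 290 and 271 against 0 and 3, and Sox6 had 695 and 749 against 178 and 196. Sox4 ran the other way, at 1010 and 943 in AT2 against 313 and 468. The C/EBP factors, which drive secretory and lipid genes in many epithelia, were also split. Cebpa had 6154 and 7372 in AT2 against 2296 and 2908 in Club cells (1.38 ± 0.15, adjusted p = 0.001), while Cebpb had 1086 and 1284 against 2788 and 2953 (-1.28 ± 0.15, adjusted p = 0.0014). The calls of Irx5, Sox4 and Sox21 were lost without either Club replicate (highest adjusted p 0.099, 0.21 and 0.22), and those of Sox4 and Sox21 also without either AT2 replicate (0.10 and 0.10 at most).

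Nkx2-1, the homeodomain factor that defines lung epithelium, had 7181 and 6482 in AT2 cells, with 2887 and 2864 in Club cells (1.25 ± 0.11, adjusted p = 0.00029), so both populations held it at high counts but not equally. The lipid regulators Srebf1 and Srebf2 were higher in AT2 at 4483 and 3733 against 1464 and 1568, and 5630 and 5623 against 2373 and 2071. Foxp1, a forkhead repressor, had 3223 and 3675 against 1121 and 1035, and Mitf, a regulator of lysosomal genes, 805 and 911 against 150 and 78. Among nuclear receptors, 10 of 33 (30.3%) were higher in Club cells and 2 (6.06%) in AT2, against 9.71% and 8.42% of all genes. Nr3c1, the glucocorticoid receptor, had 1964 and 2161 in AT2 against 822 and 1048, while the retinoic acid receptor gene Rarb had 930 and 876 in Club cells against 0 and 26. Hes1, a target of Notch, had 3171 and 2911 in Club cells against 816 and 844 (-1.87 ± 0.13, adjusted p = 0.00012), and Runx1 had 5252 and 5671 against 1785 and 1868. Grhl1, a grainyhead factor of barrier epithelia, had 1004 and 1097 against 82 and 71. The factors named in this paragraph were chosen after their values were seen. The calls of Rarb (highest adjusted p 0.20), Grhl1 (0.058) and Srebf1 (0.059) were lost without either Club replicate.

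The large zinc finger family had few calls. Of 330 ZFP genes, 10 were higher in AT2 and 5 in Club cells, or 4.55% called against 18.1% of all genes. The factors named as shared, because they had a mean of at least 500 in both populations with a log2 fold change under 0.5 in size, were the AP-1 genes Jun, Fos and Fosb and the RNA-binding zinc finger gene Zfp36, which is no transcription factor but carries a symbol of the class. Jun had 19064 and 28913 in AT2 cells, with 23140 and 23249 in Club cells (0.02 ± 0.19, adjusted p = 0.97), so the Club values lay between those of the AT2 samples. Nkx2-1 was called higher in AT2 and Foxa1 in Club cells, the latter a call lost without either Club replicate. Foxa2, Gata6 and Grhl2, 3 factors of the wider lung epithelium, were not called, at limma adjusted p of 0.17, 0.074 and 0.20. Foxa1 and these 3 were chosen after their values were seen. A p that misses the threshold does not show that levels were equal. Over the class, 84 and 81 of the 142 calls remained without AT2 replicates 1 and 2, and 45 and 50 remained without Club replicates 1 and 2.

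**Figure D2:**
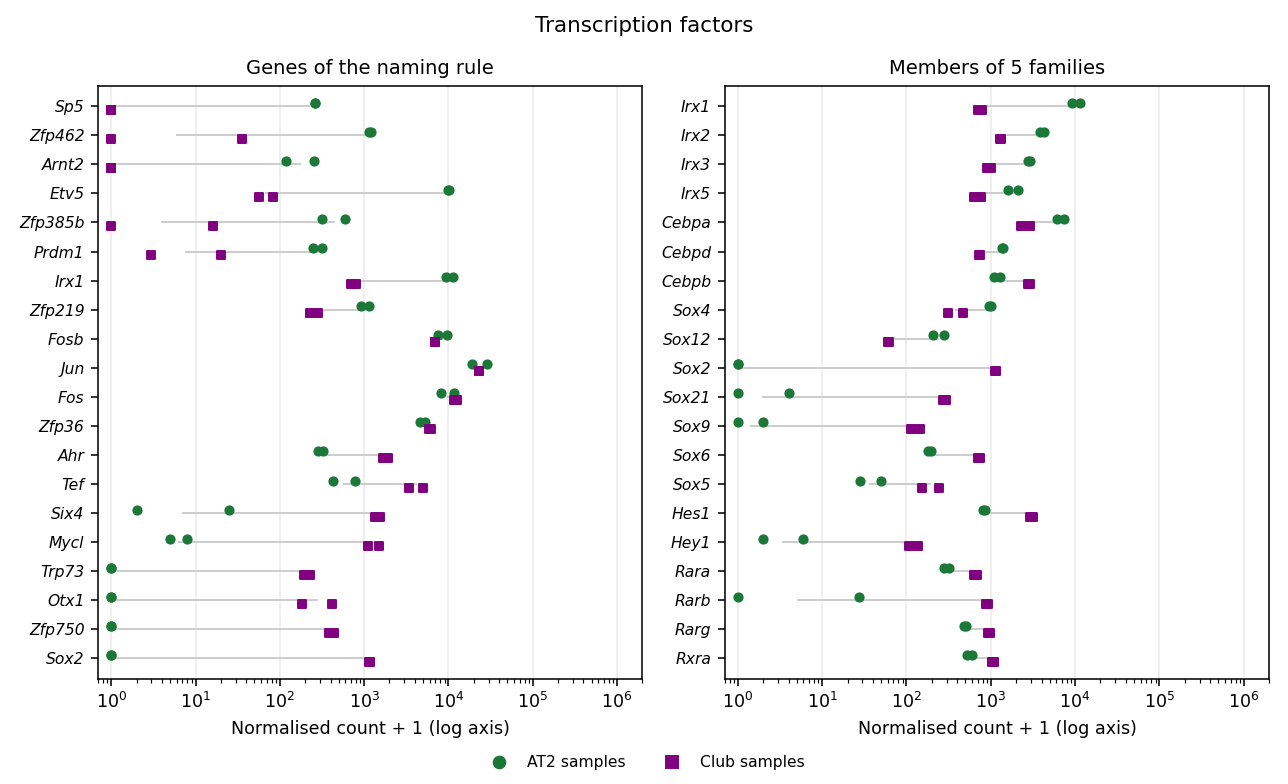
Normalised counts plus 1 of transcription factor genes in each of 2 AT2 samples (green circles) and 2 Club samples (purple squares) on a log x axis; grey lines join the means of the logs. Factors listed at 0 in one population sit at the left edge, such as Sox2 in AT2 and Sp5 in Club cells, while the values of Jun and Fos overlap or nearly touch.

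Of 381 receptor genes, 62 were higher in AT2 and 84 in Club cells. Among receptor tyrosine kinases, which bind growth factors, 7 of 40 were higher in AT2 and 12 in Club cells. Together 47.5% were called, against 18.1% of all genes and 38.3% of the receptor class. Kdr, the VEGF receptor known from endothelium, had 5510 and 5892 normalised counts in Club cells and 1 and 0 in AT2 (log2 fold change -11.98 ± 0.44, adjusted p = 8e-06). The endothelial markers Pecam1 and Vwf had 3 and 6, and 63 and 32, in the same Club samples. Igf1r, the insulin-like growth factor receptor, had 5185 and 6359 in Club cells against 296 and 202 in AT2 (-4.55 ± 0.32, adjusted p = 0.00012). Gfra1, the co-receptor for GDNF, had 1062 and 1188 against 0 and 1, and its ligand gene Gdnf ran the opposite way, at 596 and 566 in AT2 and 0 in both Club samples. Ros1, an orphan receptor kinase, had 384 and 332 in AT2 and was listed at 0 in Club cells, at least 128-fold lower (adjusted p = 0.00076).

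The FGF receptors were divided by member; these and the other receptors of this paragraph were chosen after their values were seen. Fgfr2, which reads the FGF signals that maintain distal epithelium, had 15062 and 14848 in AT2 cells, with 4828 and 5475 in Club cells (1.54 ± 0.11, adjusted p = 0.00015). Fgfr1 had 182 and 139 in AT2 and 1174 and 1423 on the Club side (-3.01 ± 0.24, adjusted p = 0.00023), and Fgfr3 had 921 and 550 against 3928 and 3736. Of the ephrin receptor genes, Epha7 had 1614 and 1546 in AT2 against 15 and 25, and Ephb2 had 217 and 100 in Club cells against 0 and 0. Met, the hepatocyte growth factor receptor, was high in both and 1.80-fold higher in AT2 (adjusted p = 0.0013). Its call was lost in a limma fit without a trend of the spread with level (adjusted p = 0.094). The call of Fgfr3 was lost without either Club replicate (highest adjusted p 0.055).

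Receptors of developmental signals were divided between the populations as well. Bmpr1b, a type I BMP receptor, had 2291 and 2705 in Club cells and was listed at 0 in AT2, at least 908-fold lower (adjusted p = 8.1e-05), whereas the type I receptor gene Bmpr1a was not called (adjusted p = 0.10). Lgr6, a receptor for R-spondins that amplify WNT signals, had 1726 and 1584 in Club cells and 0 in AT2. Of 32 Frizzled, LRP, Notch and Hedgehog receptor genes, 53.1% were called, against 18.1% of all genes and 38.3% of the receptor class. Among them 10 were higher in AT2 and 7 in Club cells. Lrp2, the endocytic receptor megalin, was the most abundant of these in AT2, at 32098 and 29295 against 65 and 256 (7.88 ± 0.53, adjusted p = 9.3e-05). The WNT receptors Fzd7 (1941 and 2158 against 312 and 424) and Lrp5 (3047 and 3206 against 678 and 820) and the lipoprotein receptor Vldlr (1890 and 1694 against 5 and 42) were higher in AT2. Notch2 had 10573 and 10158 in Club cells against 4003 and 4693 (-1.26 ± 0.12, adjusted p = 0.0006), and Notch3 had 1377 and 1623 against 15 and 56. Notch2 and Notch3 were thus higher on the Club side, as were the LRP family members Lrp1, at 1431 and 943 in Club cells against 131 and 137, and Lrp4, at 4053 and 4547 against 671 and 762. The calls of Lgr6 (highest adjusted p 0.11) and Notch3 (0.076) were lost without either Club replicate. All but Bmpr1b, Lgr6 and Lrp2 were chosen after their values were seen.

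Of 138 G protein-coupled and hormone receptor genes, 30 (21.7%) were higher in Club cells and 11 (7.97%) in AT2, against 9.71% and 8.42% of all genes. Cckar, a receptor for cholecystokinin, had 5057 and 5035 in Club cells against 133 and 15 in AT2 (-6.77 ± 0.82, adjusted p = 0.0017). Vipr1, a receptor for vasoactive intestinal peptide, had 492 and 405 against 0 and 0, and Adcyap1r1, the receptor for a related peptide, had 588 and 348 against 1 and 0. The lysophosphatidic acid receptor genes Lpar1 and Lpar3 had 274 and 220, and 1872 and 1738, in Club cells against 0 and 0, and 165 and 119, in AT2. On the AT2 side, the adhesion receptor Adgrf5, which takes part in control of surfactant levels, had 21673 and 23947 against 3955 and 4749 (2.39 ± 0.12, adjusted p = 3e-05). Adora2b, an adenosine receptor, had 706 and 626 against 125 and 88, and Avpr1a, a vasopressin receptor, 222 and 120 against 0 and 0. Olfr171, an olfactory receptor gene, had 122 and 132 in AT2 and 0 in Club cells. It lies 23.5 kb from Lamp3 on chromosome 16, which had 51993 and 47686 in AT2 against 38 and 40; whether the reads came from an Olfr171 transcript was not tested. The calls of Cckar (highest adjusted p 0.11), Adcyap1r1 (0.086) and Avpr1a (0.18) were lost without either Club replicate, that of Avpr1a without either AT2 replicate (0.093 at most), and that of Lpar1 without Club replicate 1 (0.052). Beyond Cckar, Adgrf5, Avpr1a and Olfr171, these genes were chosen after their values were seen.

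Immune and uptake receptors differed too. Pigr, which carries polymeric immunoglobulin across epithelium, had 14448 and 14409 in Club cells and 60 and 41 in AT2 (-8.16 ± 0.27, adjusted p = 6.3e-06). Of 64 cytokine, interferon, TNF and Toll-like receptor genes, 12 were higher in Club cells and 7 in AT2, together 29.7% against 18.1% of all genes and 38.3% of the receptor class. Lepr, the leptin receptor, had 628 and 575 in Club cells and 0 in AT2, and Il13ra1, which reads the cytokines that drive mucus production, had 2855 and 2292 against 369 and 261 (-3.04 ± 0.22, adjusted p = 0.00015). Il6st, the shared chain of the IL-6 family receptors, was 2.11-fold higher in Club cells and Lifr, a partner of that chain, was 2.49-fold higher in AT2. Scarf2, a scavenger receptor, had 1397 and 1871 in AT2 against 21 and 2. Of 17 plexin, neuropilin, Robo and netrin receptor genes, 47.1% were called, against 18.1% of all genes and 38.3% of the receptor class. Among them 5 were higher in AT2 and 3 in Club cells. Nrp1, a co-receptor for semaphorins and VEGF, had 6445 and 9781 in AT2 against 106 and 109 (6.19 ± 0.20, adjusted p = 5.9e-06), and Unc5c, a netrin receptor, had 463 and 754 in Club cells against 0 and 0. Itga9, an integrin chain, had 7754 and 9336 in AT2 against 294 and 384. Plxnb2, Sorl1, Gprc5a and Lrp6 were named as shared, and Plxnb2 had 5627 and 5800 in AT2 cells, with 5723 and 6296 in Club cells (-0.07 ± 0.10, adjusted p = 0.71). The calls of Unc5c (highest adjusted p 0.10, without either Club replicate) and Lifr (0.054, without Club replicate 1) were lost. Il13ra1, Il6st and Lifr were chosen after their values were seen. Of the 146 receptor calls, 89 and 91 remained without AT2 replicates 1 and 2, and 64 and 67 without Club replicates 1 and 2.

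Transporter and channel genes were called in 63 cases for AT2 and 89 for Club cells, of 523. Slc34a2, the phosphate carrier that AT2 cells use to recover phosphate from surfactant, had 187818 and 199846 normalised counts in AT2 cells, with 1823 and 2250 in Club cells (log2 fold change 6.58 ± 0.12, adjusted p = 3.1e-07). Other ion carriers of the solute carrier (SLC) group were also high in AT2: Slc26a9, a chloride carrier, at 5682 and 5453 against 619 and 687 (3.09 ± 0.12, adjusted p = 8.6e-06), and Slc24a4, a calcium exchanger, at 2987 and 3181 against 31 and 89. In Club cells, Slc4a5, a bicarbonate cotransporter, had 7440 and 7740 against 1310 and 1756 (-2.32 ± 0.17, adjusted p = 0.00014). The oligopeptide carrier Slc15a1 had 307 and 372 in AT2 against 2 and 11, and the dicarboxylate carrier Slc13a3 had 148 and 55 against 0 and 0. The glutamine carrier Slc38a1 had 2936 and 3483 in Club cells and was listed at 0 in AT2, at least 1167-fold lower (adjusted p = 9.9e-06), while its family member Slc38a2 was named as shared at 4766 and 5770 in AT2 cells, with 5711 and 6114 in Club cells (adjusted p = 0.42). The call of Slc13a3 was lost without either Club replicate (highest adjusted p 0.074).

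Of 28 ABC transporter genes, 5 (17.9%) were higher in each population, against 8.42% and 9.71% of all genes toward AT2 and Club cells. Of 33 P-type pump and lipid flippase genes, 4 (12.1%) were higher in AT2 and 8 (24.2%) in Club cells. Among those with lipid substrates, Abca3, which loads phospholipid into lamellar bodies, had 41669 and 40705 in AT2 cells, with 12530 and 13463 in Club cells (1.66 ± 0.09, adjusted p = 3.5e-05). Abca17, whose gene lies 1.0 kb from Abca3 on chromosome 17, had 569 and 527 against 6 and 18 (5.57 ± 0.53, adjusted p = 0.00051); whether its reads came from an Abca17 transcript was not tested. Abcd3, a peroxisomal fatty acid carrier, had 8877 and 8883 against 1442 and 2179, and the lipid flippase gene Atp8a1 had 25723 and 23268 against 7201 and 8661. Abcc1, an export pump for conjugated compounds, had 1608 and 1546 in Club cells against 120 and 64. The organic anion carriers Slco4c1 (5355 and 6149 against 1085 and 1241) and Slco2a1, a prostaglandin carrier (3414 and 3503 against 208 and 306), were higher in AT2, whereas Slco1a5 had 303 and 265 in Club cells against 0 and 0. Abca3, Atp8a1, Abcc1, Slco2a1 and Slco1a5 were chosen after their values were seen.

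Proton pump genes that were called were mostly higher in AT2. V-type pumps acidify lysosomes and lamellar bodies. Against 8.42% and 9.71% of all genes, 7 (31.8%) of their 22 genes were higher in AT2 and 1 (4.55%) in Club cells. The one was Atp6v1b1, the B subunit isoform of acid-secreting cells, at 914 and 687 in Club cells and 0 in both AT2 samples, at least 291-fold lower (adjusted p = 0.0043). Its counterpart Atp6v1b2, the widespread isoform, was higher in AT2 at 3026 and 2615 against 1137 and 803 (1.56 ± 0.19, adjusted p = 0.0016). Atp6v0a1, a membrane subunit, had 3820 and 3387 in AT2 against 836 and 695, and the kidney-type isoform Atp6v0a4 had 372 and 386 against 16 and 39. The call of Atp6v1b1 was lost without either Club replicate (highest adjusted p 0.11). The calcium pump genes Atp2c2 and Atp2b2 were higher in Club cells, with Atp2c2 at 1807 and 1685 in Club cells against 14 and 6, and Atp2b2 at 1653 and 1619 against 13 and 27. The sodium pump subunit gene Atp1b1 was not called (adjusted p = 0.33). Atp6v1b1 and Atp1b1 were named by the rule, and the other pump genes given here were chosen after their values were seen.

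Channels showed the epithelial sodium channel as a Club-side group. Scnn1b had 5858 and 6075 in Club cells and 200 and 292 in AT2 (-4.62 ± 0.23, adjusted p = 2.5e-05), Scnn1g had 2550 and 2806 against 134 and 183 (-4.09 ± 0.27, adjusted p = 8.7e-05), and Scnn1a had 7219 and 8445 against 4082 and 4384 (-0.88 ± 0.13, adjusted p = 0.0036). The beta and gamma subunits thus had larger fold changes than the alpha subunit, whose call was lost without Club replicate 2 (adjusted p = 0.077). Gabrp, the pi subunit of the GABA-A receptor, had 10248 and 9384 in Club cells and 2 and 0 in AT2 (-12.47 ± 0.50, adjusted p = 9.9e-06). Aqp4, a water channel, had 1052 and 867 in Club cells and 0 in AT2, at least 349-fold lower (adjusted p = 0.0012), and Cacna2d1, a calcium channel subunit, had 755 and 768 against 0 and 0. Clca1, a regulator of chloride channels secreted by goblet cells, had 6830 and 10667 against 1 and 9; it is 1 of the 10 goblet markers whose sum is given above, and their part in its difference was not tested. Ano1, a calcium-activated chloride channel, had 2634 and 2215 in Club cells against 325 and 293 (-2.96 ± 0.21, adjusted p = 0.00012), whereas Cftr, the cyclic AMP-regulated chloride channel, had 2327 and 1505 in AT2 against 629 and 370 (1.95 ± 0.30, adjusted p = 0.0044). Chloride channels therefore included members on both sides, 5 of 28 (17.9%) in each direction. Over all genes the shares were 8.42% toward AT2 and 9.71% toward Club cells. On the AT2 side, Kcne2, a potassium channel subunit, had 1385 and 1870 against 21 and 29 (5.97 ± 0.27, adjusted p = 1.7e-05), and the calcium channel gene Cacna1c had 1967 and 1908 against 223 and 294. Kcnk2, a stretch-sensitive potassium channel, had 2877 and 3834 in Club cells against 115 and 147. The call of Cftr was lost without Club replicate 2 (adjusted p = 0.092). Scnn1a, Scnn1g, Ano1, Cftr, Cacna1c and Kcnk2 were chosen after their values were seen. Of the 152 calls in the class, 110 and 105 remained without AT2 replicates 1 and 2, and 70 remained without either Club replicate.

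**Figure D3:**
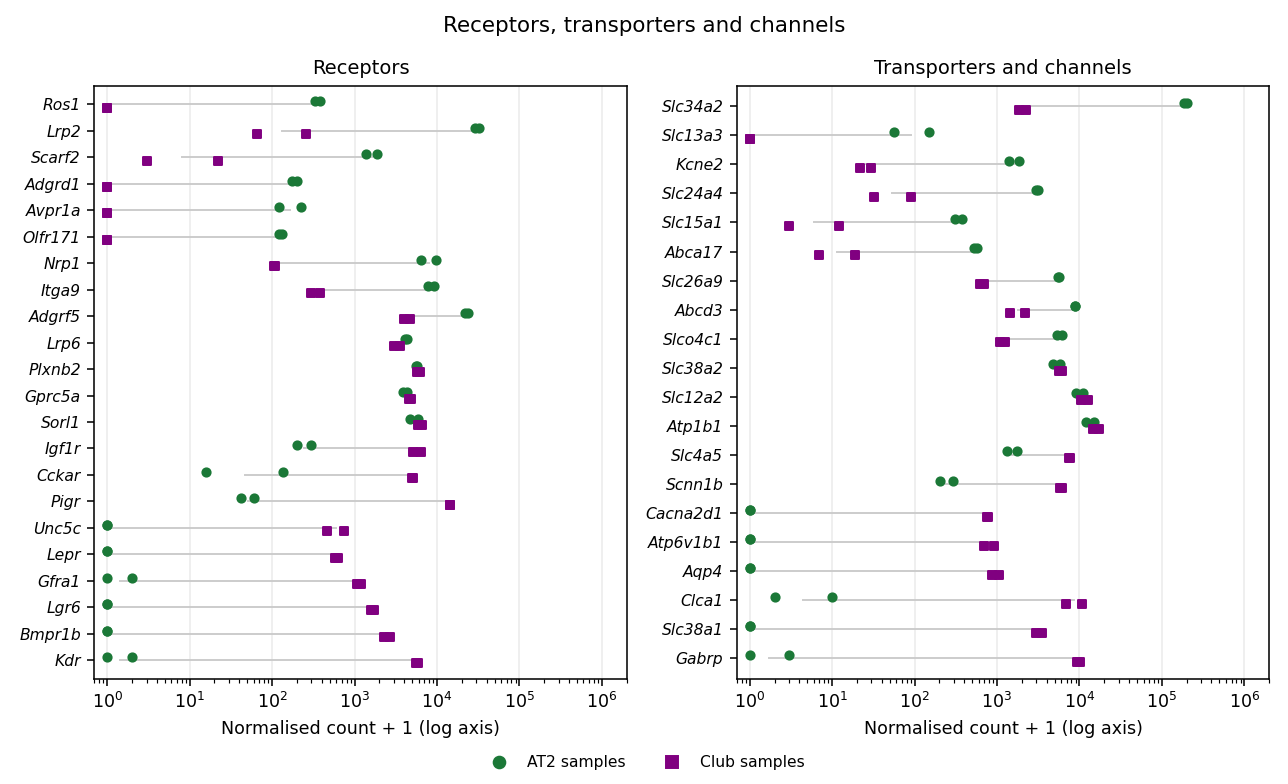
Normalised counts plus 1 of the receptor genes (left) and transporter and channel genes (right) named by the rule, in 2 AT2 samples (green circles) and 2 Club samples (purple squares) on a log x axis; grey lines join the means of the logs. Shared genes such as Plxnb2 and Atp1b1 sit in the middle rows with the populations close together, and Slc34a2 and Gabrp lie at opposite ends.

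Secreted protein genes had the largest share of calls among the 4 classes, with 105 higher in AT2 and 92 in Club cells of 457, of which 85 and 80 reached 4-fold. The surfactant proteins and secretoglobins were all called, 4 in each direction, including the 2 sort genes. Sftpa1 and Sftpb, which organise and spread surfactant, had 238017 and 238052, and 180272 and 193709, in AT2 and still had 33231 and 42594, and 29454 and 36944, in Club cells. Their log2 fold changes were 2.66 ± 0.13 and 2.50 ± 0.13 (adjusted p = 2.4e-05 and 2.5e-05), while Sftpd, a surfactant collectin, was 2.78-fold higher in AT2. Scgb3a2 had 59744 and 57857 in Club cells against 12 and 21 in AT2 (-11.76 ± 0.40, adjusted p = 6.6e-06), and Scgb3a1 had 49424 and 26263 against 8 and 0. Both secretoglobins were thus within 21 normalised counts of 0 in AT2, whereas the surfactant protein genes Sftpa1, Sftpb and Sftpd had at least 12019 in each Club sample. The share of cells carrying them cannot be read from bulk values.

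Mucins and the BPI fold proteins coat and defend airways. They were higher in Club cells in 11 of 15 cases (73.3%) and in AT2 in 2 (13.3%), against 9.71% and 8.42% of all genes. Muc5b, the main secreted mucin of small airways, had 71552 and 62105 in Club cells against 7 and 17 in AT2 (-12.44 ± 0.36, adjusted p = 3.8e-06). Bpifb1 had 22921 and 18573 against 1 and 2 (-13.04 ± 0.81, adjusted p = 6.8e-05). Bpifa1 had 64511 in Club replicate 1 and 25250 in Club replicate 2 against 1 and 5 in AT2, so the Club samples differed from each other at a gene where AT2 was near 0. Scgb3a1 and Ltf, the lactoferrin gene at 11097 and 4665 in Club cells against 1 and 0, were also higher in Club replicate 1, and Clca1 was lower there. Muc5ac and Tff2, a mucin and a trefoil factor of goblet cells, had 1370 and 1665, and 1150 and 1390, in Club cells and 0 in AT2, and stand among the goblet markers. Muc1, a membrane mucin, ran the other way at 17377 and 17601 in AT2 against 9958 and 11728 (0.69 ± 0.11, adjusted p = 0.0049). The calls of Bpifa1 (highest adjusted p 0.074) and Ltf (0.12) were lost without either Club replicate, and that of Muc1 without Club replicate 1 (0.075). Muc5ac, Tff2, Muc1 and Sftpd were chosen after their values were seen.

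Antimicrobial and defence proteins fell on both sides, 8 of 29 (27.6%) higher in AT2 and 11 (37.9%) in Club cells. Over all genes the shares were 8.42% and 9.71%. Lyz2, a lysozyme gene, had 178232 and 179734 in AT2 cells, with 2179 and 990 in Club cells (6.93 ± 0.31, adjusted p = 1.6e-05). Lyz1 had 10035 and 16981 against 1 and 3, but it lies 5.5 kb from its near-identical copy Lyz2 and the authors' counting could divide reads between them, so its value is uncertain. Chil1, a chitinase-like protein, had 35797 and 38932 in AT2 against 2901 and 3654 (3.52 ± 0.14, adjusted p = 9.5e-06), and Lcn2, an iron-sequestering lipocalin, had 4922 and 5697 against 492 and 413. Hp, which binds haemoglobin, had 37659 and 45354 in Club cells against 6055 and 5337 (-2.86 ± 0.13, adjusted p = 1.6e-05), and Wfdc2, a small protease inhibitor of the airways, had 22100 and 23689 against 5294 and 6658. Of 36 complement and coagulation genes, 10 (27.8%) were higher in each population, also above the shares of all genes. The fifth component Hc had 86014 and 82856 in AT2 against 396 and 445 (7.65 ± 0.10, adjusted p = 5.2e-08), while C3 had 28793 and 29212 in Club cells against 5880 and 5653 (-2.33 ± 0.09, adjusted p = 9.1e-06). Components of one cascade thus differed in opposite directions. Apart from Lyz1 and Lyz2, the genes of this paragraph were chosen after their values were seen.

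Type IV collagen, the network of basement membranes, is encoded by 3 head-to-head gene pairs, and both genes of each pair were called in the same direction. Col4a1 and Col4a2, whose starts lie 21 bases apart on chromosome 8, had 9076 and 10611, and 8812 and 8847, in AT2 against 230 and 340, and 156 and 289, in Club cells (log2 fold changes 5.13 ± 0.20 and 5.37 ± 0.26, adjusted p = 9e-06 and 2.3e-05). Col4a3 and Col4a4, 127 bases apart on chromosome 1, had 1031 and 2151, and 2258 and 2787, against 192 and 321, and 497 and 609 (2.58 ± 0.42 and 2.19 ± 0.18). Col4a3 is 1 of the 15 alveolar type 1 markers whose sums are given above, and their part in its difference was not tested. Col4a5 and Col4a6, 1309 bases apart on chromosome X, went the other way, with 2593 and 2918, and 1660 and 1581, in Club cells against 775 and 673, and 0 and 10, in AT2 (-1.93 ± 0.20 and -8.93 ± 1.02, adjusted p = 0.00072 and 0.0012). The inter-alpha-trypsin inhibitor heavy chains, which bind hyaluronan, also lie in clusters. Itih1, Itih3 and Itih4, within 5.6 and 6.6 kb of their neighbours on chromosome 14, were higher in AT2, with Itih4 at 8474 and 10524 against 16 and 26 (8.78 ± 0.27, adjusted p = 4.6e-06). Itih2 and Itih5, 22.9 kb apart on chromosome 2, were higher in Club cells, at 709 and 767, and 556 and 558, against 0 and 3, and 9 and 0. Both families were described after their values were seen, and how often neighbours of any kind share a direction was not tested. The calls of Col4a3 (highest adjusted p 0.16), Col4a6 (0.092), Itih2 (0.067), Itih3 (0.24) and Itih5 (0.14) were lost without either Club replicate, and that of Itih3 also without AT2 replicate 1 (0.14).

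Of 18 laminin and other basement membrane genes, 8 (44.4%) were higher in AT2, 2 (11.1%) were higher in Club cells and 8 were not called. Over all genes, 8.42% were higher in AT2 and 9.71% in Club cells. Tinag, a tubulointerstitial antigen, had 1070 and 945 in AT2 and 0 in Club cells, at least 361-fold lower (adjusted p = 5.3e-05). Of the laminin chains, Lama3 had 944 and 1531 in AT2 against 77 and 23, and Lamb3 had 1938 and 2711 against 81 and 157 (4.33 ± 0.31, adjusted p = 0.00014). Hspg2, the proteoglycan perlecan, and Npnt, nephronectin, had 2819 and 2224, and 2341 and 3464, in AT2 against 132 and 101, and 116 and 166. Lama5, the laminin chain of most adult epithelia, was named as shared at 3818 and 4263 against 4451 and 4441 (-0.14 ± 0.14, adjusted p = 0.58). Among other matrix genes, Col6a1 had 6830 and 6872 in AT2 against 54 and 26 (7.47 ± 0.33, adjusted p = 1.6e-05), Sparc had 1955 and 2618 against 40 and 89, and Chad, chondroadherin, had 5851 and 5040 in Club cells against 7 and 11 (-9.11 ± 0.49, adjusted p = 3.5e-05). Other than Tinag and Lama5, these genes were chosen after their values were seen. The call of Lama3 was lost without Club replicate 2 (adjusted p = 0.051).

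Signalling proteins and enzymes completed the class. Il33, an alarmin cytokine, had 5633 and 4314 in AT2 cells, with 0 and 1 in Club cells (11.77 ± 0.40, limma adjusted p = 6.3e-06). Of 24 cytokine genes, 6 (25.0%) were higher in AT2 and 1 (4.17%) in Club cells. Together 29.2% were called, against 18.1% of all genes and 43.1% of the secreted class. Egfl6, an EGF-like matrix protein, had 7324 and 8424 in AT2 against 14 and 6 (9.58 ± 0.34, adjusted p = 6.9e-06), and Gdnf, whose co-receptor Gfra1 was described above, was at least 208-fold higher in AT2 (adjusted p = 0.00014). Cxcl15, the lung-specific chemokine, had 74286 and 65477 in AT2 against 4875 and 7460 (3.53 ± 0.19, adjusted p = 3.5e-05), while Cxcl17 had 2768 and 2449 in Club cells against 173 and 136 (-4.08 ± 0.24, adjusted p = 5.4e-05). Of the BMP genes, Bmp1, a procollagen protease, had 9314 and 10391 in AT2 against 125 and 283 and Bmp2, a growth factor, 340 and 569 against 6 and 9. The WNT ligands were divided, with Wnt3a at 180 and 171 in AT2 and 0 in Club cells, and Wnt5a at 211 and 331 in Club cells against 1 and 0. Of 65 protease genes, 12 were higher in AT2 and 5 in Club cells. Together 26.2% of them were called, below the 43.1% of the secreted class. Napsa, which processes surfactant protein precursors, had 9330 and 11234 in AT2 against 68 and 42 (7.55 ± 0.23, limma adjusted p = 4.6e-06). Apoe, a lipid carrier, had 4200 and 3622 in AT2 against 75 and 54, and Cp, the copper protein ceruloplasmin, had 21393 and 18774 in Club cells against 20 and 133 (-8.56 ± 0.78, adjusted p = 0.00042). Vegfa, Ctsb and Pon3 were named as shared with Lama5. Their log2 fold changes were 0.50, -0.39 and 0.46, and Pon3 was itself called (adjusted p = 0.049). The calls of Wnt3a (highest adjusted p 0.18) and Cp (0.061) were lost without either Club replicate, that of Wnt3a also without either AT2 replicate (0.083 at most), and that of Pon3 without any 1 of the 6 libraries (0.25 at most). Beyond Il33, Egfl6, Gdnf, Vegfa, Ctsb and Pon3, these genes were chosen after their values were seen. Over the class, 141 and 135 of 197 calls remained without AT2 replicates 1 and 2, and 105 and 109 without Club replicates 1 and 2.

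**Figure D4:**
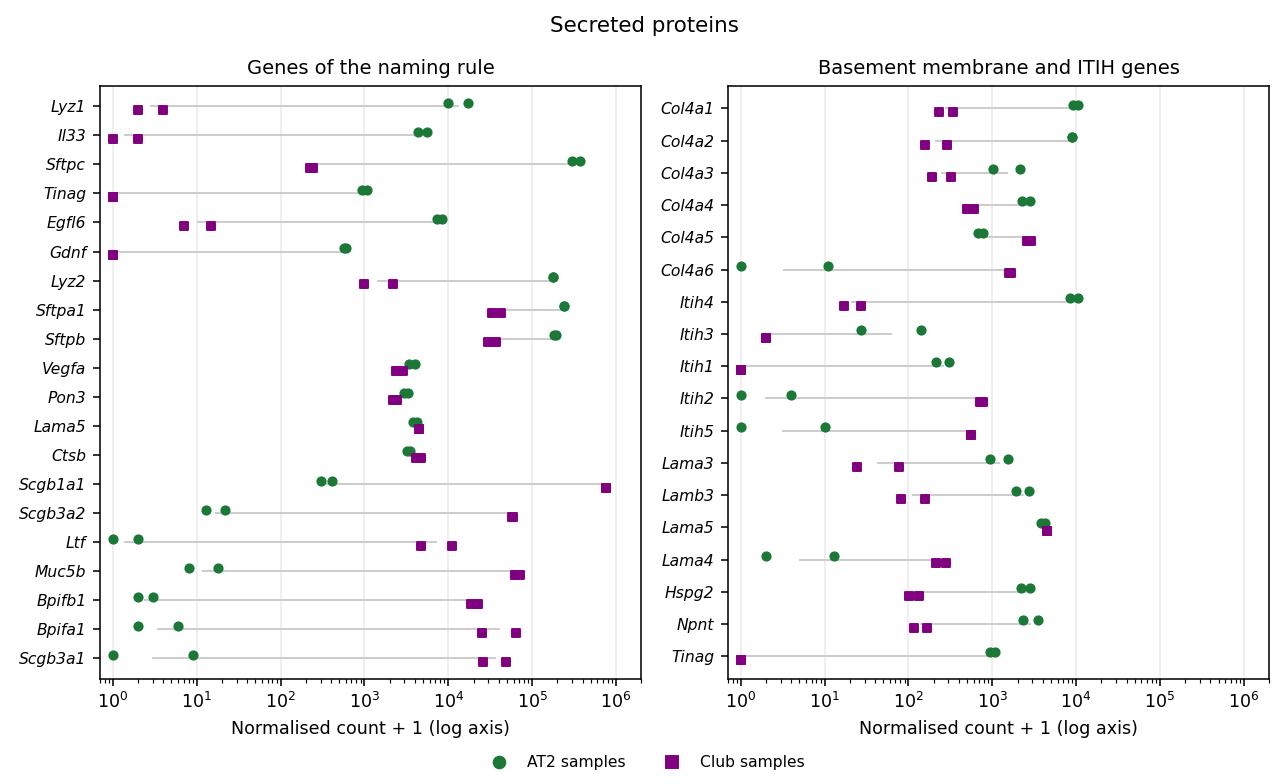
Normalised counts plus 1 of secreted protein genes named by the rule (left) and of basement membrane and inter-alpha-trypsin inhibitor (ITIH) genes (right), in 2 AT2 samples (green circles) and 2 Club samples (purple squares) on a log x axis; grey lines join the means of the logs. Col4a1 to Col4a4 lie higher in AT2 and Col4a5 and Col4a6 higher in Club cells, and the Club values of Bpifa1 and Scgb3a1 are spread.

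Of 1836 long non-coding RNA genes, 88 were higher in AT2 and 99 in Club cells, together 10.2% against 18.1% of all genes. The named genes of high level in AT2 included Gm45332, at 321 and 385 normalised counts against 0 and 0, Gm33248, at 609 and 531 against 3 and 0, and Gm44751, at 1042 and 860 against 79 and 115 (log2 fold change 3.30 ± 0.30, adjusted p = 0.00041). In Club cells they included Gm15883, at 1226 and 1063 against 0 and 0, B430010I23Rik, at 1777 and 1490 against 123 and 151 (-3.57 ± 0.23, adjusted p = 8.6e-05), and Gm42868, at 324 and 347 against 0 and 0. Neat1, the scaffold of nuclear paraspeckles, which the rule named as shared and thus with a log2 fold change under 0.5 in size, had 42002 and 30604 in AT2 cells, with 33649 and 26157 in Club cells (0.27 ± 0.19, adjusted p = 0.41). Malat1, a nuclear RNA of speckles that was chosen after its values were seen, had 488852 and 405524 in AT2 against 242364 and 236412 in Club cells (0.90 ± 0.12, adjusted p = 0.0029), a call that was lost without either Club replicate (highest adjusted p 0.23). The call of Gm42868 was lost in the same way (0.058).

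Of the 18 named long non-coding RNA genes that were called, 17 had a nearest tested coding gene that was called the same way. Of these 17, 8 overlapped that gene and 4 lay over 100 kb from it, up to 417.9 kb, 2 of them with the same nearest gene, Ndn. Gm15883 runs antisense to Cyp2f2, which had 98182 and 101859 in Club cells against 173 and 186. Gm13449, at 501 and 363 in AT2 against 0 and 9 (call lost without AT2 replicate 1, adjusted p = 0.054), runs antisense to Hc, and B430010I23Rik antisense to Mtus1, at 12810 and 11650 in Club cells against 1632 and 1405. Because the strand setting of the counting is not given in the sources used here, reads from a gene and its antisense partner cannot be told apart. Other pairs did not overlap: Gm43086, at 100 and 197 in AT2 against 0 and 0, lies 29.3 kb from Cxcl15, Gm44751 lies 0.6 kb from Ctsc, a cathepsin gene at 11643 and 9005 in AT2 against 1259 and 1191, and Gm42868 lies 8.1 kb from Fam46c, at 7488 and 7127 in Club cells against 101 and 203. The exception was Gm33248, whose nearest coding gene Wdr11 had 693 and 724 in AT2 cells, with 709 and 739 in Club cells (adjusted p = 0.93).

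The same count over all long non-coding RNA genes, made after these pairs were seen, covered 186 of the 187 called genes, since 1 shares its symbol with a more abundant row. The nearest tested coding gene was called in the same direction for 62.9% of the 186 and for 21.9% of 1646 that were not called. Where the RNA overlapped a coding gene the shares were 74.3% of 101 and 23.1% of 1076, and where it lay apart from it 49.4% of 85 and 19.5% of 570. Among called RNAs apart from a coding gene it was 42.2% of 45 within 10 kb and 70.0% of 10 over 100 kb. In all 75 cases in which a called RNA overlapped a called coding gene, both differed in the same direction. These are descriptions without a test, since neighbouring genes and overlapping reads are not independent.

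Non-coding RNA genes near developmental and imprinted genes differed as well. Gm45332 and Crnde, the latter at 438 and 594 in AT2 against 163 and 55, lie 199.4 kb and 1.8 kb from Irx5 on chromosome 8, and the antisense RNA Irx3os had 635 and 255 against 105 and 62. Meg3 and Rian, imprinted RNAs expressed from the maternal chromosome and 32.2 kb apart on chromosome 12, had 357 and 183, and 212 and 211, in AT2 against 16 and 7, and 7 and 3, in Club cells (4.46 ± 0.72 and 5.23 ± 0.93, adjusted p = 0.0057 and 0.0088). Kcnq1ot1, an imprinted RNA of the paternal chromosome, had 7525 and 6725 in Club cells against 3084 and 2665 (-1.31 ± 0.15, adjusted p = 0.0013), and the coding gene Kcnq1 that it crosses had 558 and 652 against 433 and 362. A230057D06Rik and A330076H08Rik, 1.4 kb apart on chromosome 7, had 211 and 261, and 242 and 253, in Club cells against 2 and 0, and 0 and 0. Sox2ot, which overlaps Sox2 on the same strand, had 92 and 52 in Club cells and 0 in AT2. The calls of Meg3 (highest adjusted p 0.085), Rian (0.13), Kcnq1ot1 (0.069), Irx3os (0.23) and A230057D06Rik (0.072) were lost without either Club replicate, that of Sox2ot without Club replicate 1 (0.051) and that of Crnde without either AT2 replicate or Club replicate 2 (0.11 at most). Without AT2 replicate 1 the calls of Meg3 (0.054), Rian (0.064) and Irx3os (0.091) were also lost, as was that of Rian without AT2 replicate 2 (0.067). Crnde and Irx3os were lost without either BASC replicate too (0.055 and 0.057 at most). Meg3, Rian, Kcnq1ot1, Irx3os and Sox2ot were chosen after their values were seen. Of the 187 calls, 50 and 58 remained without AT2 replicates 1 and 2, and 73 and 70 without Club replicates 1 and 2.

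**Figure D5:**
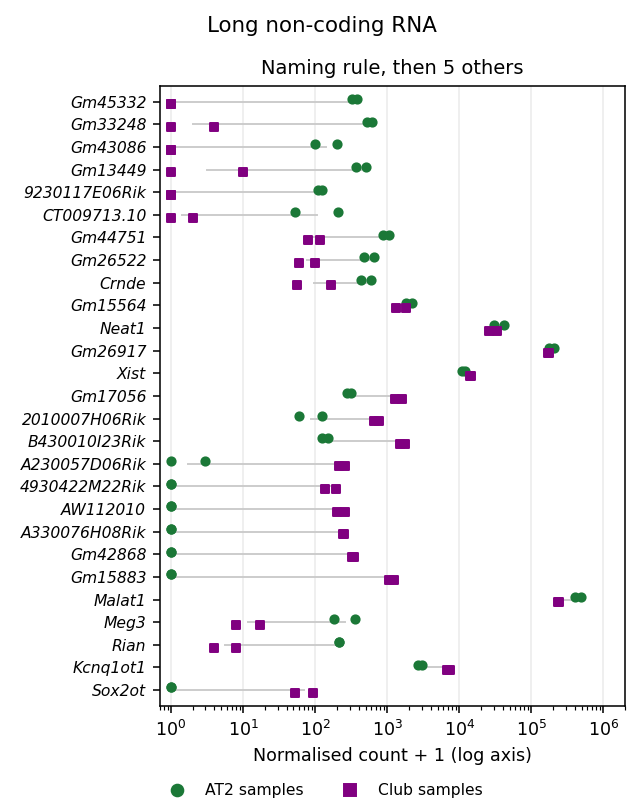
Normalised counts plus 1 of long non-coding RNA genes named by the rule and of 5 others at the bottom, in 2 AT2 samples (green circles) and 2 Club samples (purple squares) on a log x axis; grey lines join the means of the logs. Neat1 and Gm26917, named as shared, have populations close together in the deposited values, while the RNAs with the largest differences lie at the left edge in one population.

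Small non-coding RNA genes gave 5 calls for AT2 and 7 for Club cells among 504, 2.38% against 18.1% of all genes. The mitochondrial ribosomal RNA mt-Rnr2 had 783008 and 756171 in AT2 against 536431 and 502039 in Club cells (0.57 ± 0.10, adjusted p = 0.0099), a call lost without either Club replicate (highest adjusted p 0.49). Mir1903, 1 of 5 microRNA genes called among 50, had 14 and 37 in AT2 and 0 in Club cells, and its call was lost without AT2 replicate 2 or either Club replicate (highest adjusted p 0.13). It overlaps Nrp1, and reads of the 2 genes cannot be told apart here. Both genes were chosen after their values were seen.

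Coding genes outside the 4 classes were called in 19.7% of 11240 cases, 1042 higher in AT2 and 1168 in Club cells. The largest differences toward AT2 were Acoxl, an acyl-CoA oxidase-like gene, at 7110 and 6704 against 2 and 0, Nkd1, an inhibitor of WNT signalling, at 4322 and 5404 against 0 and 1, and the metalloprotease Adam19, at 5765 and 7855 against 0 and 4. The MHC class II genes H2-Ab1 and H2-Eb1, which present antigen, had 2920 and 5744, and 1269 and 2159, in AT2 against 0 and 1, and 0 and 0. Lamp3 had a fitted log2 fold change of 10.28 ± 0.12 (adjusted p = 4.6e-08). Toward Club cells stood Mgat3, a glycosyltransferase, at 6853 and 5962 against 0 and 0, and Aldh1a1, a retinaldehyde dehydrogenase, at 52198 and 46721 against 32 and 12 (-11.22 ± 0.42, adjusted p = 8.6e-06). The cytoskeletal genes Iqgap2 and Enah had 2961 and 2773, and 5332 and 5782, in Club cells against 0 and 0, and 3 and 1, and Ccdc129 had 2766 and 1982 against 0 and 0. At each of these genes the populations did not overlap, which the rule required.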

How the data were processed

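Bulk libraries of the AT2 and Club samples were made with the SMARTer Pico kit, which keeps strand, per the labels' protocols. The submitters' processing notes name FastQC, STAR 2.4.0a, featureCounts 1.4.5-p1 and the build mm10 (GRCm38). The deposited signal values were taken, from their spacing, to be gene counts that had been scaled and rounded. How they were normalised, with which strand setting and annotation, is not given in the sources used here. No gene had a maximum under 7.

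From these, log2(value + 1) of 17721 genes with at least 10 in at least 2 of 6 samples was fitted by group over all 6 samples in limma 3.58.1 under R 4.3.3 (eBayes with a trend, 3 residual and 4.20 prior degrees of freedom), 2-sided, with Benjamini-Hochberg adjustment. Fold changes are ratios of means; log2 fold changes and SE are fitted. On simulated data of 17721 genes, 100 were changed 2-fold and 100 were changed 4-fold. Of these 18% and 49% were called, and 4 unchanged genes were called. Far fewer genes changed there than the 3212 called here, so the adjustment was stricter and these shares do not carry over. Classes and families were set by symbol patterns. Per class and direction, the rule named up to 6 called genes with the largest fitted change, a mean of at least 100 (long non-coding RNA 50) in the higher population and no overlap, up to 4 of the most abundant with a log2 fold change of at least 2 in size, and up to 4 shared genes. Members, lists and rule were chosen with earlier results of these data known. Some genes that the rule names are not reported here or drawn in the plots.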

Additional observations from a re-analysis of the deposited data

How the results depend on the processing

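With 1 AT2 or Club library left out, between 1160 and 1799 of the 3212 calls remained, and none of their fold changes changed sign. At genes whose samples do not overlap between the populations, leaving out 1 library cannot change that sign. Without a trend in the spread, 2028 genes were called (849 higher in AT2 and 1179 in Club cells). Transcription factor calls went from 142 to 73. Of 347 called genes named or listed, 270 remained in that fit. Apart from that of Met, the losses given above for single genes cover only fits without 1 library. Nr3c1 and Il6st were also lost without the trend (limma adjusted p = 0.066 and 0.061). Non-coding RNA calls went from 199 to 112 with a minimum of 50 in at least 2 samples, which tests fewer genes, and to 127 with a robust fit; the cause of the latter was not tested. Leaving out 1 library at a time, the 2 BASC samples included, gave between 1178 and 3118 calls, of which between 604 and 1382 were higher in AT2 and between 569 and 1741 in Club cells. The counts were between 885 and 1963 for calls of at least 4-fold, 47 and 138 for transcription factors, 65 and 141 for receptors, 70 and 143 for transporters and channels, 105 and 191 for secreted proteins and 71 and 222 for non-coding RNA. Among protein-coding nuclear genes only, secreted proteins held 14.6% in both populations, and transporters and channels 5.86% in AT2 and 3.87% in Club cells. Scaling to protein-coding genes moved the median log2 fold change of all genes from -0.10 to -0.22, gave 1299 calls for AT2 and 2008 for Club cells, and turned Jun to -0.11. Quantile normalization turned Jun to -0.11, Neat1 to -0.0303 and Gm26917 to -0.63, and leaving out 1 library gave Jun between -0.28 and 0.32. None of the 3 was called as deposited, but under quantile normalization Gm26917 was called higher in Club cells (limma adjusted p = 0.0097), and the cause was not tested. Other pseudocounts, no filter, median-of-ratios scaling and a fit of the 4 samples alone left the total within 1.5 times. Differences between replicates 1 and 2 were nearly uncorrelated between populations across genes (0.012, 0.006 and 0.008). Such values cannot show whether samples of the same number share an animal or a sort. A replicate block gave 3045 calls. On simulated data 18% of genes changed 2-fold were called, but far fewer genes changed there than were called here. Adjustment was therefore stricter in the simulation, and the share of 2-fold differences missed in these data cannot be read from it.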
